A study of Mus musculus with 5 samples.

Results

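The genes of the mitochondrial respiratory chain and ATP synthase were followed through adipocyte differentiation of mouse cells, with and without a polycation. They were taken by symbol from the 32285 genes listed in the files: nuclear genes named Nduf (subunits of complex I), Sdha to Sdhd (complex II), Uqcr (complex III), Cox4 to Cox8 (complex IV) and Atp5 (complex V), and the mitochondrially encoded mt-Nd, mt-Cytb, mt-Co and mt-Atp genes. This gave 98 genes, 85 in the nucleus and 13 in the mitochondrial genome. By complex, the nuclear genes numbered 36, 4, 8, 20 and 17 in complexes I to V, with Ndufa4 and Ndufa4l2 counted in complex IV, and the mitochondrial ones 7, 1, 3 and 2 in complexes I, III, IV and V. The symbol pattern leaves out some subunits, such as Ndufab1 and Cyc1, and the electron carrier Cycs.

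The cells were 3T3-L1, a clonal mouse preadipocyte line that differentiates in culture. P-G3, a polycationic polymer of the PAMAM type, was present at 10 µg/mL in the treated cultures from the start of induction, and these were collected on days 3 and 6. Their untreated counterparts were collected on the same days, and untreated day 0 cells had received neither polymer nor cocktail. All day 3 and day 6 cultures, with or without P-G3, had been induced with dexamethasone, insulin and isobutylmethylxanthine in serum and then kept in insulin. Each of the 5 groups was 1 single-cell 3' library, so there is no replicate check, no test was made, and intervals cover counting error only. The kept cells held between 88432894 and 179221992 unique molecular identifiers (UMIs, each standing for 1 captured RNA molecule) per library, and pairs of libraries shared 4 to 7 cell barcodes. Adipocyte markers summed to 1840 and 9770 counts per 1000000 UMIs (CPM) with P-G3 on days 3 and 6, and to 145, 1605 and 10001 CPM in untreated cells on days 0, 3 and 6, lowest on day 0.

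The respiratory chain passes electrons from NADH through complex I, or from succinate through complex II, to ubiquinone, complex III, cytochrome c and finally complex IV, which reduces oxygen. Complexes I, III and IV pump protons across the inner membrane, and complex V uses the return flow to make ATP. Complex II is encoded wholly in the nucleus, whereas each of the other complexes is assembled from subunits of both genomes, and mitochondrial content is known to increase as preadipocytes turn into adipocytes.

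Promoter sequence was available for 67 of the 85 nuclear genes, in 72 windows running from 250 bases before to 50 bases after the annotated start (RefSeq, GRCm38.p6). They were searched on both strands for letters bound by factors known to act on respiration genes. The NRF1 palindrome was in the windows of 5 of the 67 genes (Atp5g2, Atp5k, Cox6a1, Ndufa11 and Uqcrc1), and in 0.971% of 32851 windows of all genes. Its core GCATGCGC, which the palindrome contains, was in those of 10 genes and in 2.71% of all windows. The YY1 letters AAGATGGC were found for 9 genes (2.75% of all windows), the ETS letters CCGGAAGT for 5 (3.89%), the CRE palindrome TGACGTCA for 4 (1.79%), and the ERR letters TCAAGGTCA for 2, Atp5g3 and Sdhd (0.423%). Counted by gene, the NRF1 palindrome was in 7.46% of the 67 genes and 1.07% of 27025 genes in all, and its core in 14.9% and 3.05%. In the same order, YY1 letters were in 13.4% and 3.19%, and ETS letters in 7.46% and 4.31%. The CRE palindrome was in 5.97% and 2.03%, and the ERR letters in 2.99% and 0.466%. A match is a description of the letters only.

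Shown are the windows of 5 genes that stood at the high end of a comparison: Cox7a1 (chr7:30183921-30184220, plus strand), Cox6a1 (chr5:115348909-115349208, minus), Uqcrfs1 (chr13:30545267-30545566, minus), Atp5g3 (chr2:73911277-73911576, minus) and Ndufa6 (chr15:82354242-82354541, minus). Capitals mark the NRF1 palindrome in Cox6a1, the CRE palindrome in Uqcrfs1, the ERR letters on the opposite strand in Atp5g3 and the NRF1 core in Ndufa6. None of the letter strings searched is in the Cox7a1 window. The 5 were picked by hand and do not stand for all genes at the high end. Atp5o, Ndufb10 and Ndufa1, also at the high end of a comparison, had windows with none of the strings. Those of Uqcr11 and Ndufs3, likewise at a high end, held the ETS letters.
Cox7a1: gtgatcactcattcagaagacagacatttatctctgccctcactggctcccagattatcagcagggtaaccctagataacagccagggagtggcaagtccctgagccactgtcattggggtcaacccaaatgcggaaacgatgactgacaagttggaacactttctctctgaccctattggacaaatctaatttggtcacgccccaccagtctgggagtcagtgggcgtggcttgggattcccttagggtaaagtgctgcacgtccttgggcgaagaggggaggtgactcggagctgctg
Cox6a1: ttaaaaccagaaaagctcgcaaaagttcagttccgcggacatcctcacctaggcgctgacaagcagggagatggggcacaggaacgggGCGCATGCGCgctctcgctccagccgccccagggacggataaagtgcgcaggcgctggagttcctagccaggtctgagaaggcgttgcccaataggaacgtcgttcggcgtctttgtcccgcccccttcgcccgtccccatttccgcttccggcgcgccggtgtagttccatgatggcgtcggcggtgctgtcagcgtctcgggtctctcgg
Uqcrfs1: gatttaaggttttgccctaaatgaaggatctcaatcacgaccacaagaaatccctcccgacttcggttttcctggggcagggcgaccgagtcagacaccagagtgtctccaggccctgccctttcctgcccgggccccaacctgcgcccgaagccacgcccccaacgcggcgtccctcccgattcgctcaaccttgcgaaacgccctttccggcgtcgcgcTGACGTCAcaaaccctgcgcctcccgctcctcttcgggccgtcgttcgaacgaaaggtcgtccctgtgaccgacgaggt
Atp5g3: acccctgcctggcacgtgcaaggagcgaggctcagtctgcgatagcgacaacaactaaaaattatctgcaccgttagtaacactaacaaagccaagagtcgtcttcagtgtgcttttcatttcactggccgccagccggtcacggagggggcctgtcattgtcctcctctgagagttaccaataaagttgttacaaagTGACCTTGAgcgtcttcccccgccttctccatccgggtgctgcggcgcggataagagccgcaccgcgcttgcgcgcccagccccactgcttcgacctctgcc
Ndufa6: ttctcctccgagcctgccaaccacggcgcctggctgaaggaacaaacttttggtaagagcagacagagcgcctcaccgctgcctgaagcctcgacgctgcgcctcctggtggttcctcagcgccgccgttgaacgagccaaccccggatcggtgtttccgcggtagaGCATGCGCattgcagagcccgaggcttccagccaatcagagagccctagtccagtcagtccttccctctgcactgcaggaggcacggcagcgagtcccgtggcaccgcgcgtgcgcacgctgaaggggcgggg

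In sums over untreated cells, both genomes' transcripts took a larger share of all UMIs as differentiation went on. The mitochondrial sum differed mainly by day 3, and the nuclear sum in 2 steps of similar size. The 85 nuclear genes summed to 28892, 37909 and 50370 CPM on days 0, 3 and 6. The 13 mitochondrial genes summed to 31538, 62623 and 71773 CPM on the same days. The nuclear sum thus differed by 0.39 on the log2 scale between days 3 and 0 and by 0.41 between days 6 and 3, and the mitochondrial sum by 0.99 and 0.20. Per kept cell, the median mitochondrial share was 6.29% on day 3 and 6.03% on day 6. The later step of the mitochondrial sum was thus not seen in that median. Cells were kept by a limit on their mitochondrial share, so the size of this later step depends on the filter. The filter kept 99.7% of untreated UMIs on day 3 and 95.5% on day 6. The UMIs left out were 42.2% mitochondrial on day 3 and 40.8% on day 6. Over all deposited untreated barcodes the median mitochondrial share was 6.35% on day 3 and 8.96% on day 6. In sums over a culture, fewer cells of a type and less RNA per cell cannot be told apart. Shares are of a fixed total, so a higher share of one transcript class lowers the others.

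**Figure D1:**
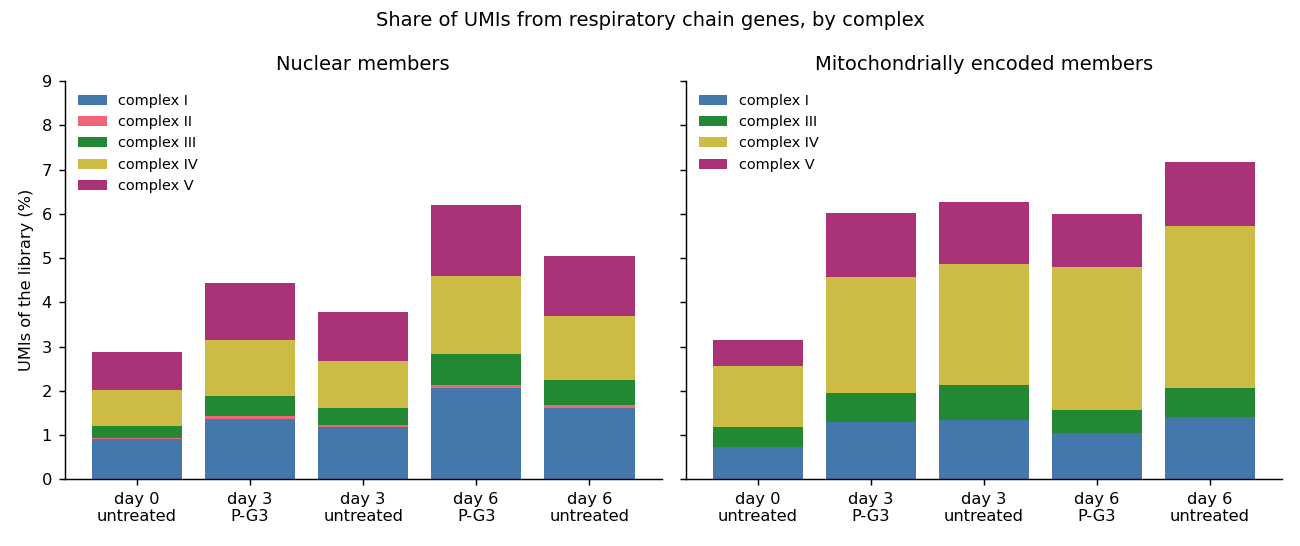
Stacked bars give the percentage of each library's UMIs that came from the nuclear (left) and the mitochondrially encoded (right) genes, coloured by complex. The nuclear total was 6.20% with P-G3 and 5.04% in untreated cells on day 6, whereas the mitochondrial total was 5.99% with P-G3 and 7.18% in untreated cells.

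Single genes were compared where they averaged at least 5 CPM over the 5 libraries, which held for 9044 genes in all and for 92 of the 98 described here, 79 nuclear and all 13 mitochondrial. A ratio is given as log2 of CPM plus 1 over CPM plus 1, and the sizes counted are 25% higher, which is a ratio of 0.32 on this scale, and its reciprocal, 20% lower. On day 6 against day 0, 73 of the 79 nuclear genes stood at least 25% higher and 0 at least 20% lower, while 40.1% of all genes passed the first size and 26.9% the second. Their median log2 ratio was 0.81, against 0.13 over all genes, and 26 of them were at least 2-fold higher (15.5% of all genes). All 79 were above 0, as were 57.6% of all genes, although 3 of them, Ndufs8, Ndufa13 and Ndufa12, were below 0 under scaling by the trimmed mean of M values (TMM), which sets the bulk of genes near 0. By complex the medians were 0.83, 1.04, 1.12, 0.95 and 0.65 for complexes I to V, with complex III highest and complex V lowest.

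On day 3 against day 0, 47 of the 79 nuclear genes were at least 25% higher and 1 lower, with 30.8% and 17.7% of all genes past these sizes. Under scaling by the median of gene ratios (median-of-ratios), 29 were at least 25% higher, with 21.7% of all genes past that size. Above 0 were 74 of the 79, and 58.2% of all genes. On day 6 against day 3 the counts were 54 and 0, with 28.1% and 22.3% of all genes. These 2 steps share the day 3 library. The median ratio of the nuclear genes was 0.36 on day 3 over day 0 (0.09 over all genes) and 0.44 on day 6 over day 3 (0.04 over all genes).

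**Figure D2:**
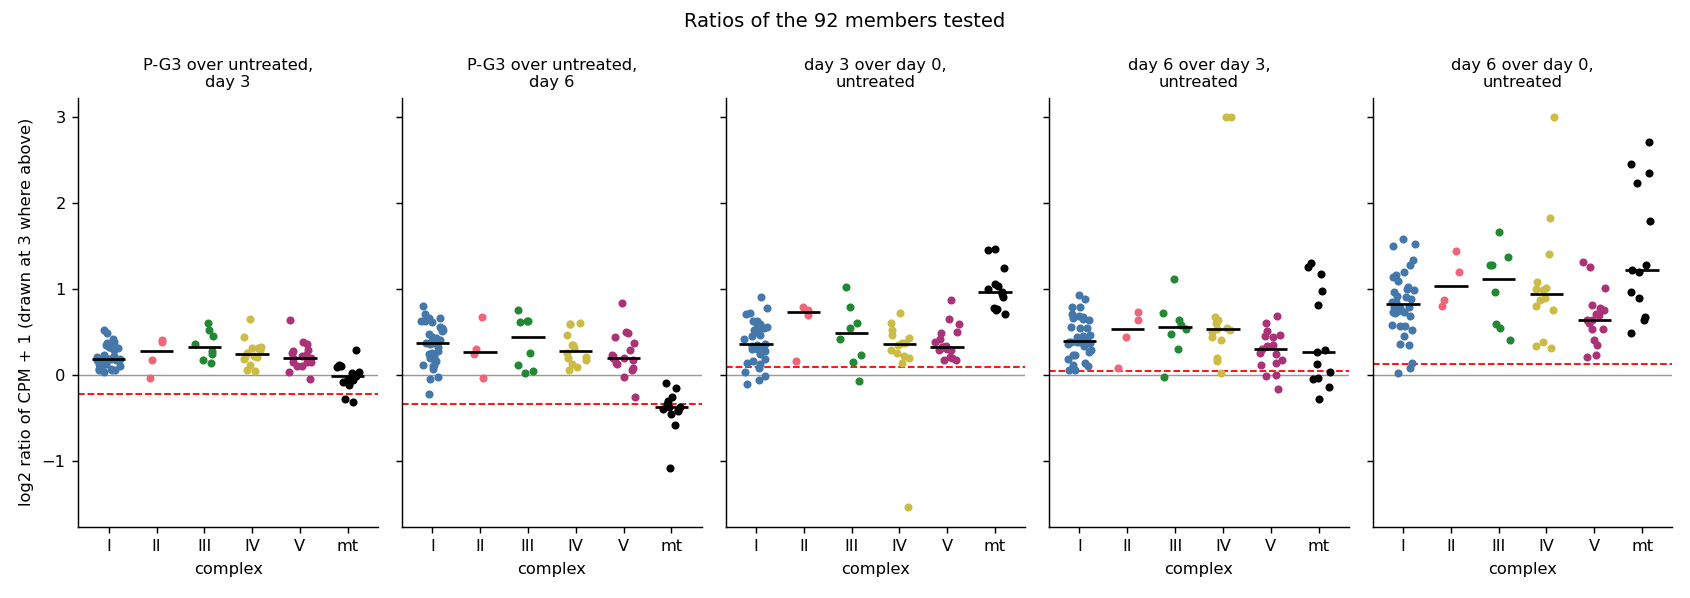
Each point is the log2 ratio (CPM plus 1) of 1 of the 92 genes in 1 comparison, by complex for nuclear genes, with the mitochondrially encoded genes at the right. Black bars are medians and the dashed red line is the median of all genes. With P-G3 on day 6 the nuclear median was 0.29 and the mitochondrial median -0.37 on the scale of total UMIs. Under TMM scaling 5 of the 13 mitochondrial genes were above 0, with the median of all genes at -0.02.

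Within complex III, Uqcrfs1, which encodes the Rieske iron-sulfur protein that passes electrons on to cytochrome c1, stood at 304 and 535 CPM with P-G3 on days 3 and 6, and at 108, 221 and 346 CPM in untreated cells on days 0, 3 and 6. Its untreated log2 ratio was 1.02 on day 3 over day 0 and 1.67 on day 6 over day 0 (interval of the count ratio, 1.65 to 1.71). Uqcrq, a small subunit of the complex, followed another course. It stood at 903 and 1922 CPM with P-G3 on days 3 and 6, and at 730, 816 and 1773 CPM in untreated cells on days 0, 3 and 6, so most of its difference lay between days 3 and 6 (log2 ratio 1.12). Uqcr11, another small subunit, had the larger step early, with a log2 ratio of 0.80 on day 3 over day 0 and 0.58 on day 6 over day 3. Uqcrc1, one of the core proteins, was at -0.07 on day 3 over day 0, and Uqcrh, the hinge protein, at -0.02 on day 6 over day 3.

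In complex I the ratios of day 6 over day 0 ran widely. Ndufs1, the largest iron-sulfur subunit of the arm that oxidises NADH, stood at 61.1 and 115 CPM with P-G3 on days 3 and 6, and at 33.6, 58.5 and 102 CPM in untreated cells on days 0, 3 and 6. Its untreated log2 ratio of day 6 over day 0 was 1.58. Ndufb10, of the membrane arm, was at 0.91 on day 3 over day 0, and Ndufa1, a small membrane-arm subunit encoded on the X chromosome, at 0.94 on day 6 over day 3. At the low end on day 6 over day 0 were Ndufs8, an iron-sulfur subunit, at 0.02, Ndufa13, also known as Grim19, at 0.08, and Ndufa12 at 0.14. Ndufs8 stood at 172 and 221 CPM with P-G3 on days 3 and 6, and at 164, 153 and 166 CPM in untreated cells on days 0, 3 and 6, which are nearly level without the polymer.

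The 4 subunits of complex II, which also belongs to the citric acid cycle, were all at least 25% higher on day 6 than on day 0 (40.1% of all genes). Sdha, the flavoprotein that oxidises succinate, stood at 97.4 and 163 CPM with P-G3 on days 3 and 6, and at 60.8, 99.9 and 167 CPM in untreated cells on days 0, 3 and 6. Sdhb, the iron-sulfur subunit, stood at 182 and 342 CPM with P-G3 and at 122, 137 and 214 CPM in untreated cells on the same days. The membrane anchors Sdhc and Sdhd had log2 ratios of 1.20 and 0.88 on day 6 over day 0. Timing differed among the 4: Sdhc, Sdhd and Sdha were at 0.76, 0.79 and 0.71 on day 3 over day 0, and Sdhb at 0.17.

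Complex IV held the tissue-specific isoforms, and these differed from their general counterparts. Cox7a1 (chr7:30184144-30186078), the form known from heart and skeletal muscle and from brown fat, stood at 1.48 and 43.8 CPM with P-G3 on days 3 and 6, and at 0.410, 0.830 and 38.1 CPM in untreated cells on days 0, 3 and 6. Both day 6 libraries were far above the other 3. The log2 ratio of day 6 over day 3 was 4.42, and the interval of the count ratio without the added 1 CPM was 5.25 to 5.80, since the added 1 understates ratios of genes at such low levels. Cox7a2, the form found in most tissues, stood at 633 and 906 CPM with P-G3 on days 3 and 6, and at 472, 542 and 824 CPM in untreated cells on days 0, 3 and 6.

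Cox6a2 (chr7:128205435-128206387), the heart and muscle form of subunit VIa, dipped before it was high: it stood at 0.469 and 21.0 CPM with P-G3 on days 3 and 6, and at 3.08, 0.408 and 13.5 CPM in untreated cells on days 0, 3 and 6. Its untreated log2 ratio was -1.54 on day 3 over day 0 and 3.36 on day 6 over day 3, and it was the 1 nuclear gene at least 20% lower on day 3. The general form Cox6a1 stood at 441 and 687 CPM with P-G3 on days 3 and 6, and at 169, 281 and 452 CPM in untreated cells on days 0, 3 and 6.

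Cox8b, another muscle and brown fat form, was read from 0 and 300 UMIs with P-G3 on days 3 and 6, and from 0, 2 and 232 UMIs in untreated cells on days 0, 3 and 6. It averaged 1.09 CPM over the libraries, under the 5 CPM needed to be compared, as did the other 5 left out, Cox4i2, Cox6b2, Cox7b2, Cox8c and Ndufa4l2, whose averages ran from 0.00298 to 1.01 CPM. The lowest averages above the limit were 7.69 CPM for Cox6a2 and 16.9 CPM for Cox7a1. Cox4i2, the lung and hypoxia form of subunit IV, was read from 182 and 182 UMIs with P-G3 on days 3 and 6, and from 25, 94 and 134 UMIs in untreated cells on days 0, 3 and 6. Cox6b2, Cox7b2 and Cox8c, forms known from testis, had at most 16 UMIs in any library. The general forms Cox4i1, Cox6b1, Cox7b and Cox8a had log2 ratios of 1.01, 0.88, 0.90 and 1.01 on day 6 over day 0. Cox7a2l, which joins complexes III and IV into supercomplexes, was at 0.39, and Ndufa4, a subunit associated with complex IV, at 0.32.

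Since these forms are used in muscle and brown fat, markers of those cells are given beside them. The muscle markers summed to 9.17 and 30.1 CPM with P-G3 on days 3 and 6, and to 11.6, 8.57 and 31.4 CPM in untreated cells on days 0, 3 and 6. Of the 5 markers, Des made up most of the day 6 sum, at 24.2 CPM with P-G3 and 29.0 CPM in untreated cells, and Myod1, which defines the myogenic lineage, was at 0 in all 5 libraries. Among the brown fat markers, Cidea stood at 15.6 CPM with P-G3 and 14.7 CPM in untreated cells on day 6 and Elovl3 at 13.3 CPM with P-G3 and 13.9 CPM in untreated cells, whereas Dio2 was at 0 throughout and Ucp1, the uncoupling protein, had at most 3 UMIs in a library. The genes with the profile nearest to Cox7a1 over the 5 libraries, by Euclidean distance of centred log2 values, were Ffar4, Selenbp1, Ffar2, Smim41 and Cidea, at distances of 0.45 to 0.84. Macrophage markers summed to 1.86 to 3.33 CPM, endothelial markers to 0.315 to 1.33 CPM and neuronal markers to 0.720 to 1.68 CPM over the 5 libraries.

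Complex V had the lowest median. The 3 genes Atp5g1, Atp5g2 and Atp5g3 encode the same mature ring protein of the membrane rotor and differed in course. Atp5g3 stood at 850 and 1146 CPM with P-G3 on days 3 and 6, and at 432, 791 and 1077 CPM in untreated cells on days 0, 3 and 6. Atp5g2 stood at 916 and 941 CPM with P-G3 and at 680, 889 and 798 CPM in untreated cells on the same days. Atp5g1 stood at 1183 and 1393 CPM with P-G3 and at 727, 1033 and 1139 CPM in untreated cells. Their log2 ratios of day 6 over day 0 were therefore 1.32 for Atp5g3, 0.23 for Atp5g2 and 0.65 for Atp5g1. Atp5c1, the gamma subunit at the centre of the motor, was at 0.22. Several nuclear genes described here have near-identical copies elsewhere in the genome, and reads split between such copies were not examined.

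The 13 mitochondrial genes are cut from long shared transcripts, yet their ratios were far from equal. On day 3 against day 0 all 13 were at least 25% higher (30.8% of all genes) and the ratios lay between 0.72 and 1.47. On day 6 against day 3 they lay between -0.27 and 1.31, with 9 above 0, which 54% of all genes were. Of the 4 below 0, mt-Co3, mt-Nd1 and mt-Nd4 were above 0 when all deposited barcodes were used, at 0.13, 0.17 and 0.18. Of the 9 above 0, mt-Atp6 and mt-Nd2 were below 0 with cells kept up to 10% mitochondrially encoded UMIs, at -0.29 and -0.10. mt-Co1, the catalytic subunit of complex IV, stood at 7134 and 14087 CPM with P-G3 on days 3 and 6, and at 2725, 7553 and 14950 CPM in untreated cells on days 0, 3 and 6. mt-Cytb, the one mitochondrial subunit of complex III, stood at 6578 and 5113 CPM with P-G3 on days 3 and 6, and at 4683, 7943 and 6577 CPM in untreated cells on days 0, 3 and 6. The make-up of the mitochondrial UMIs therefore differed: mt-Co1 took 11.8% and 23.5% of them with P-G3 on days 3 and 6, and 8.64%, 12.1% and 20.8% in untreated cells on days 0, 3 and 6. mt-Cytb took 10.9% and 8.54% with P-G3 and 14.8%, 12.7% and 9.16% in untreated cells on the same days.

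Among the other mitochondrial genes, mt-Co2 and mt-Atp6 kept a more even share, between 18.1% and 21.0% and between 18.6% and 23.7% of mitochondrial UMIs over the 5 libraries. mt-Co3 lay between 9.75% and 15.8%, mt-Nd1 between 6.61% and 9.93%, mt-Nd2 between 4.08% and 5.37%, and mt-Nd4 between 4.40% and 6.36%. The remaining 5 genes, mt-Nd3, mt-Nd4l, mt-Nd5, mt-Nd6 and mt-Atp8, each held at most 1.08%. Their log2 ratios of day 6 over day 0 were 1.22, 1.79, 2.24, 2.35 and 2.72 in that order, against 0.68 for mt-Nd4 and 0.64 for mt-Co3.

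Some of these genes overlap. mt-Atp8 (chrM:7766-7969) runs into mt-Atp6 (chrM:7927-8607), mt-Nd4l (chrM:9877-10173) into mt-Nd4 (chrM:10167-11544), and mt-Nd6 (chrM:13552-14070), the only one of the 13 on the minus strand, meets mt-Nd5 (chrM:11742-13565). Values of the short partners mt-Atp8 and mt-Nd4l may be uncertain for that reason. The overlap of mt-Nd6 with mt-Nd5 is between opposite strands, and its part in the value of mt-Nd6 was not examined. Nuclear copies of mitochondrial DNA could also take reads.

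**Figure D3:**
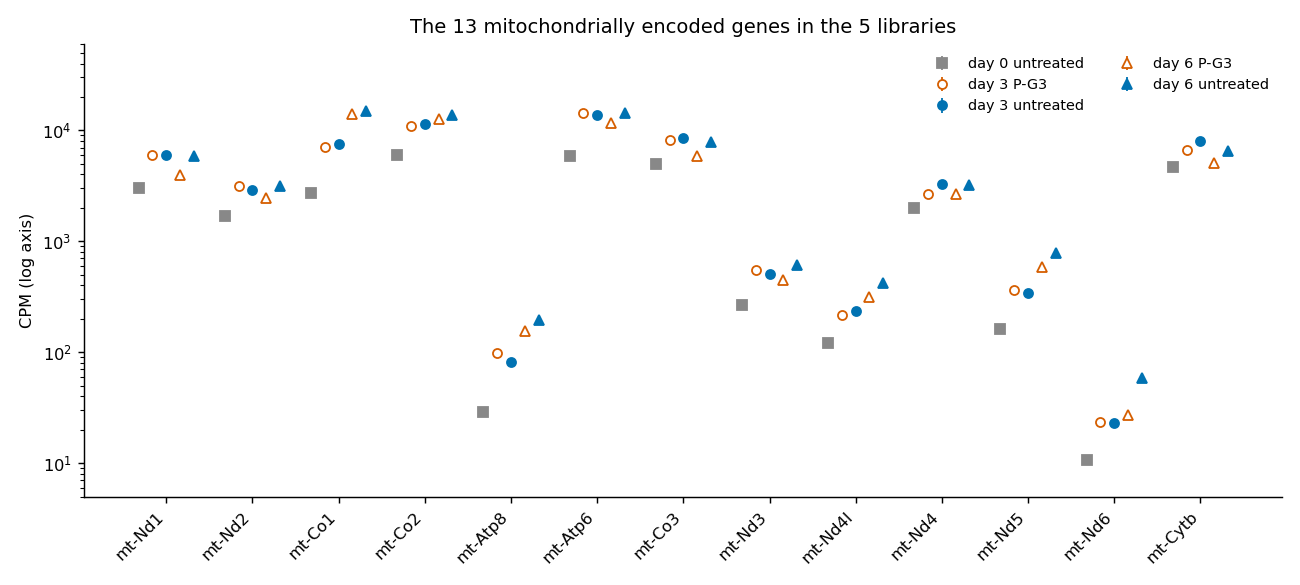
CPM of the 13 mitochondrially encoded genes (log axis) in the 5 libraries, in order along the mitochondrial genome, with open symbols for P-G3. mt-Co1 was near 14087 CPM with P-G3 and 14950 CPM in untreated cells on day 6, against 2725 CPM on day 0, whereas mt-Cytb was at 5113, 6577 and 4683 CPM in the same libraries.

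In sums, nuclear transcripts took a larger share of UMIs with P-G3 and mitochondrial transcripts a smaller one. The mitochondrial difference was small on day 3, and the gap was wider on day 6. The nuclear sum was 44437 CPM with P-G3 and 37909 CPM in untreated cells on day 3, and 61977 CPM with P-G3 and 50370 CPM in untreated cells on day 6. The mitochondrial sum was 60239 CPM with P-G3 and 62623 CPM in untreated cells on day 3, and 59878 CPM with P-G3 and 71773 CPM in untreated cells on day 6. In log2 ratios this was 0.23 and 0.30 for the nuclear sum and -0.06 and -0.26 for the mitochondrial sum, which under TMM scaling were 0.47 and 0.64 for the nuclear and 0.18 and 0.08 for the mitochondrial sum.

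Mitochondrial UMIs per nuclear UMI of these genes do not depend on how libraries are scaled. There were 1.36 with P-G3 and 1.65 in untreated cells on day 3, and 0.966 with P-G3 and 1.42 in untreated cells on day 6, with 1.09 on day 0. Each of the 4 mixed complexes had the lower value with P-G3 on both days. On day 6 complex I had 0.510 with P-G3 and 0.881 in untreated cells, complex III 0.749 with P-G3 and 1.15 in untreated cells, complex IV 1.83 with P-G3 and 2.54 in untreated cells, and complex V 0.737 with P-G3 and 1.07 in untreated cells. Complex III also had fewer in untreated cells on day 6 than on day 0, where it stood at 1.72, while complex IV had more than its 1.68 on day 0.

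With P-G3 on day 3, 21 of the 79 nuclear genes were at least 25% higher and 0 lower, where 5.04% of all genes were at least 25% higher and 38.5% lower. On day 6 these counts were 37 and 0, where 6.68% of all genes were higher and 51.3% lower. The median ratio of the nuclear genes was 0.21 on day 3 and 0.29 on day 6, and that of all genes -0.21 and -0.34. TMM scaling gave 67 nuclear genes at least 25% higher on day 3 and 73 on day 6, with all genes then split 19.7% higher and 17.5% lower on day 3 and 24.6% and 24.3% on day 6.

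The ratio with P-G3 ran with transcript length over all genes (Spearman -0.61 on day 3 and -0.62 on day 6, over 9031 nuclear genes), and the nuclear respiratory genes are short, with a median of 865 bases against 3080. With the trend over length taken off, their median ratio was 0.17 on day 3 and 0.21 on day 6. The counts at least 25% higher were then 13 and 32, with 11.4% and 15.8% of all genes past that size. The part of length in these differences beyond this removal was not tested.

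The nuclear genes with the largest P-G3 ratios came from several complexes. Atp5o, the stalk subunit that confers oligomycin sensitivity on complex V, stood at 959 CPM with P-G3 and 612 CPM in untreated cells on day 3, and at 1195 CPM with P-G3 and 667 CPM in untreated cells on day 6. Its log2 ratio was 0.65 on day 3 and 0.84 on day 6 (count-ratio interval 0.83 to 0.85). Ndufa6, an accessory subunit of complex I, stood at 281 CPM with P-G3 and 195 CPM in untreated cells on day 3, and at 631 CPM with P-G3 and 361 CPM in untreated cells on day 6. Its log2 ratio was 0.53 on day 3 and 0.80 on day 6, and both genes were higher with P-G3 on each day.

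Uqcrc2, a core protein of complex III, stood at 205 CPM with P-G3 and 134 CPM in untreated cells on day 3, and at 331 CPM with P-G3 and 195 CPM in untreated cells on day 6. Its log2 ratios were 0.61 and 0.76. Cox6a1 had 0.65 on day 3 and 0.60 on day 6, and Ndufs3, an iron-sulfur arm subunit of complex I, 0.37 and 0.71. Of complex II, Sdhb had 0.41 and 0.67, Sdhd 0.38 and 0.30, Sdhc 0.18 and 0.25, and Sdha -0.04 and -0.03. With the length trend taken off, Sdhb had 0.28 and 0.49, Sdhd 0.30 and 0.17, Sdhc 0.45 and 0.66, and Sdha 0.17 and 0.31. The catalytic subunit Sdha, near 0 before this removal, then stood above Sdhd on day 6.

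At the low end was Atp5e, the epsilon subunit of complex V, at 757 CPM with P-G3 and 783 CPM in untreated cells on day 3, and at 909 CPM with P-G3 and 1082 CPM in untreated cells on day 6, or -0.05 and -0.25 as log2 ratios. Ndufa1 stood at 196 CPM with P-G3 and 189 CPM in untreated cells on day 3, and at 310 CPM with P-G3 and 362 CPM in untreated cells on day 6, which gave 0.06 and -0.22. Under TMM scaling the day 6 ratios of Atp5e, Ndufa1 and Sdha were above 0, at 0.09, 0.11 and 0.31. Ndufb1-ps, listed under a pseudogene symbol, had 0.14 and -0.05. Atp5g2 and Ndufb9 had 0.04 each on day 3. The muscle-type forms Cox7a1 and Cox6a2 had 0.44 and 0.06 on day 3, from at most 1.48 CPM in either library, and 0.20 and 0.60 on day 6.

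The 13 mitochondrial genes had P-G3 ratios between -0.31 and 0.29 on day 3, with 6 above 0 (28.5% of all genes). On day 6 the ratios lay between -1.08 and -0.09 and 9 of the 13 were at least 20% lower (51.3% of all genes), but this direction depended on scaling, since 5 of the 13 were above 0 under TMM and 7 under median-of-ratios scaling. The median of all genes was -0.02 and 0.02 under these scalings. mt-Nd6 had the lowest ratio, at 27.1 CPM with P-G3 and 58.3 CPM in untreated cells on day 6, and at 23.4 CPM with P-G3 and 22.9 CPM in untreated cells on day 3. mt-Nd1 stood at 3960 CPM with P-G3 and 5897 CPM in untreated cells on day 6, a log2 ratio of -0.57. At the other end, mt-Co1 and mt-Co2 had -0.09 and -0.14, so the mitochondrial genes were again unequal within a library. The genes whose 5-library profile lay nearest to the mitochondrial sum were Fbxo9, Elmod3, Jmjd8, Fam117b and Myc, at distances of 0.02 to 0.15.

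Per cell, P-G3 and untreated cells stood in the same order as in the sums. The median share of nuclear respiratory genes among UMIs not mitochondrially encoded was 4.37% and 6.21% with P-G3 on days 3 and 6, and 3.00%, 3.53% and 5.28% in untreated cells on days 0, 3 and 6. The median mitochondrial share was 6.04% and 4.75% with P-G3, and 3.37%, 6.29% and 6.03% in untreated cells on the same days. Over all deposited barcodes of untreated cells it was 6.35% on day 3 and 8.96% on day 6, so the order of these days depended on the filter. Cells with more mitochondrial than nuclear UMIs of these genes made up 79.6% and 38.9% with P-G3 on days 3 and 6, and 62.6%, 85.8% and 66.0% in untreated cells on days 0, 3 and 6. When each cell was thinned to 5000 UMIs, leaving out 93 and 1461 shallower cells with P-G3 and 10, 96 and 813 untreated ones, these became 80.5% and 44.4% with P-G3 and 61.7%, 87.2% and 72.8% in untreated cells.

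**Figure D4:**
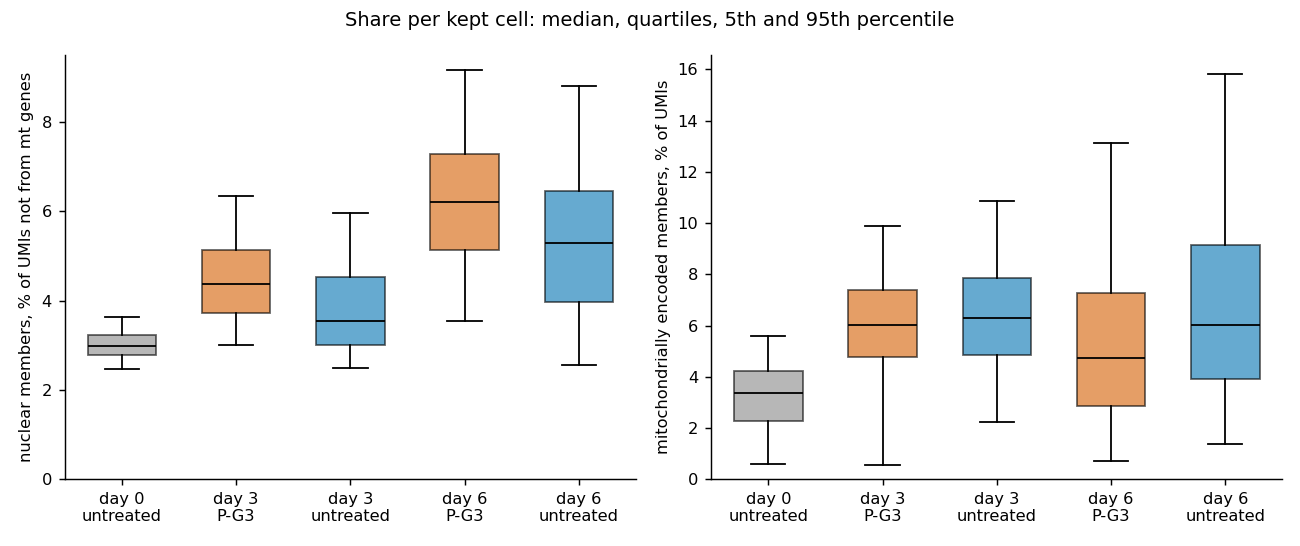
Boxes show the median and quartiles, and whiskers the 5th and 95th percentiles, over kept cells of each library, for the nuclear share of UMIs that are not mitochondrially encoded (left) and the mitochondrial share of all UMIs (right). On day 6 the nuclear median was 6.21% with P-G3 and 5.28% in untreated cells, and the mitochondrial median 4.75% with P-G3 and 6.03% in untreated cells.

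The mitochondrial share was itself used to keep cells, at no more than 20% of UMIs and at least 500 genes, and this left out many day 6 barcodes. On day 6, 62.0% of barcodes were kept with P-G3 and 46.7% in untreated cells, holding 97.0% of UMIs with P-G3 and 95.5% in untreated cells, and the mitochondrial share of the UMIs left out was 42.9% with P-G3 and 40.8% in untreated cells. Over all deposited barcodes the median mitochondrial share on day 6 was 5.96% with P-G3 and 8.96% in untreated cells, so the lower value with P-G3 was also there without the filter. Depth differed as well, with a median of 16658 UMIs per kept cell with P-G3 and 34215 in untreated cells on day 6. In cells of 30000 to 60000 UMIs there were 1.01 mitochondrial UMIs per nuclear UMI with P-G3 and 1.47 in untreated cells on day 6. On day 3 there were 1.49 with P-G3 and 1.72 in untreated cells. The median mitochondrial share of these day 3 cells was level, at 6.11% with P-G3 and 6.12% in untreated cells. In day 3 cells of 10000 to 30000 UMIs it was 6.97% with P-G3 and 7.05% in untreated cells. From 60000 UMIs it was higher with P-G3, at 5.67% with P-G3 and 5.50% in untreated cells. In day 3 cells under 10000 UMIs it was 0.158% with P-G3 and 2.76% in untreated cells.

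A small set of kept cells had almost no mitochondrial UMIs, under 0.5% of their total. They numbered 193 and 109 with P-G3 on days 3 and 6, and 142, 80 and 20 in untreated cells on days 0, 3 and 6. As shares of kept cells these were 4.96% (exact 95% interval 4.30 to 5.69%) and 3.07% (2.53 to 3.70%) with P-G3, and 4.42%, 2.22% and 0.810% in untreated cells. Their median depth was 6358 and 4273 UMIs with P-G3, and 46445, 5563 and 4527 UMIs in untreated cells, so on day 0 they were as deep as other cells and on later days shallow. Nuclear respiratory transcripts were present in them at 5.45% and 6.34% of UMIs with P-G3, and at 3.18%, 5.49% and 5.94% in untreated cells.

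Across cells of at least 10000 UMIs, the nuclear complexes moved together more closely after induction. The Spearman correlation between the complex I and complex V shares was 0.90 and 0.91 with P-G3 on days 3 and 6, and 0.69, 0.90 and 0.93 in untreated cells on days 0, 3 and 6, over 1541 to 3675 cells per library. The mitochondrial share and the nuclear share were weakly related or not: -0.09 and 0.29 with P-G3, and -0.08, -0.04 and 0.34 in untreated cells on the same days. Such values are descriptions, since the cells of a library share its preparation and differ in depth.

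The nuclear share ran with the share of UMIs from 10 adipocyte markers, with a Spearman correlation of 0.64 and 0.69 with P-G3 on days 3 and 6, and of 0.00, 0.56 and 0.71 in untreated cells on days 0, 3 and 6. Marker share also ran with depth, at 0.52 and 0.39 with P-G3 and -0.13, 0.26 and 0.42 in untreated cells. When the cells of each library were ranked by marker share and cut into 4 equal ranges, the nuclear sum in the highest range over that in the lowest had a log2 ratio of 0.54 and 0.63 with P-G3 on days 3 and 6, and of 0.00, 0.63 and 0.80 in untreated cells on days 0, 3 and 6. These ranges are cut from a score and are not cell types. Lpl made up much of the marker sum, at 4430 of 9770 CPM with P-G3 and 5968 of 10001 CPM in untreated cells on day 6. The ranges were cut within each library, so they need not match in adipocyte state between libraries. In the lowest day 6 range Adipoq stood at 74.8 CPM with P-G3 and 24.2 CPM in untreated cells.

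Between the highest and the lowest range on day 6, 69 of 79 nuclear genes were at least 25% higher with P-G3 (38.4% of all genes) and 71 of 79 in untreated cells (34.1%). On day 3 the counts were 61 of 77 with P-G3 (36.8%) and 66 of 77 in untreated cells (28.5%), and on day 0 1 of 77 (13.8%). Among the nuclear complexes on day 6, complex III had a log2 ratio between these ranges of 0.79 with P-G3 and 1.12 in untreated cells, complex II had 0.89 with P-G3 and 1.03 in untreated cells, and complex V had the smallest, at 0.50 with P-G3 and 0.64 in untreated cells. The mitochondrial sum had log2 ratios of -0.10 and 0.61 with P-G3 on days 3 and 6, and of 0.19, 0.26 and 0.79 in untreated cells on days 0, 3 and 6. By complex, the mitochondrial log2 ratios on day 3 were 0.55 with P-G3 and 0.78 in untreated cells for complex I, -0.20 with P-G3 and 0.06 in untreated cells for complex III, -0.45 with P-G3 and -0.04 in untreated cells for complex IV, and 0.02 with P-G3 and 0.45 in untreated cells for complex V.

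Over the 4 day 6 ranges, lowest to highest, Cox7a1 stood at 11.3, 26.2, 49.1 and 75.7 CPM with P-G3, and at 4.31, 18.2, 39.6 and 74.7 CPM in untreated cells. Cox6a2 stood at 10.5, 17.7, 22.0 and 30.2 CPM with P-G3, and at 3.996, 12.6, 16.8 and 16.6 CPM in untreated cells. The libraries were thus close for Cox7a1 in the highest range and apart in the lowest.

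**Figure D5:**
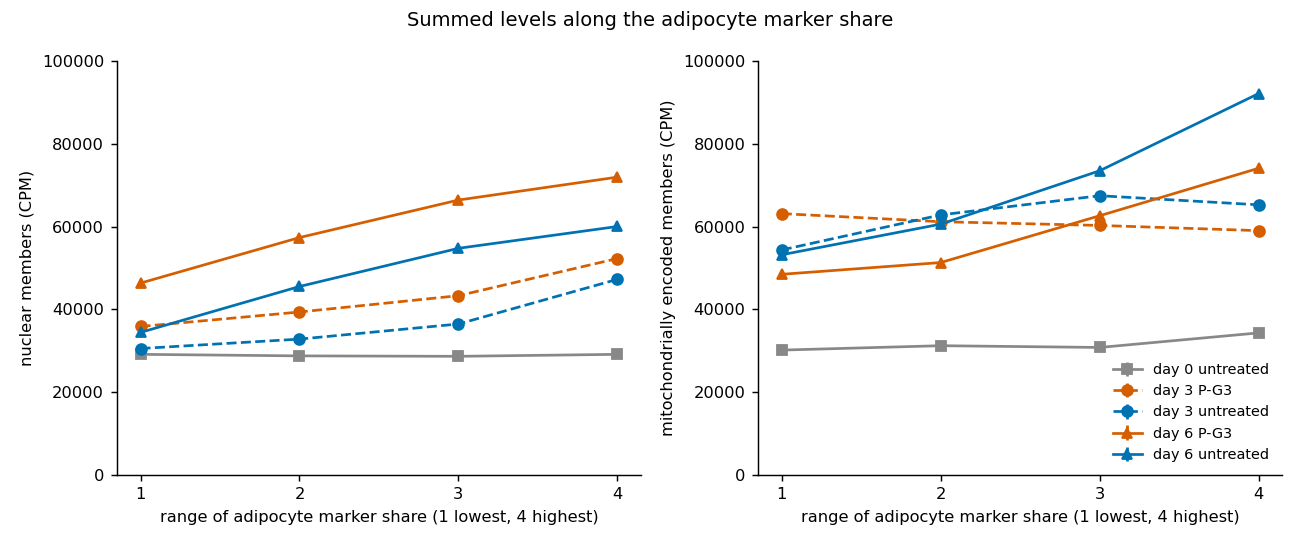
Summed CPM of the nuclear (left) and mitochondrially encoded (right) genes in 4 equal ranges of adipocyte marker share, in cells of at least 10000 UMIs. In the highest range on day 6 the nuclear sum was 71955 CPM with P-G3 and 60023 CPM in untreated cells, and the mitochondrial sum 74096 CPM with P-G3 and 92152 CPM in untreated cells.

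Within ranges of marker share, which need not match in adipocyte state between libraries, the P-G3 difference was there at each level on day 6. The nuclear log2 ratio of P-G3 over untreated cells was 0.43, 0.33, 0.28 and 0.26 in the ranges from lowest to highest, and the mitochondrial one -0.13, -0.24, -0.23 and -0.31, all on the scale of total UMIs. On day 3 the nuclear ratios were 0.23, 0.26, 0.25 and 0.15, and the mitochondrial ones 0.22, -0.04, -0.16 and -0.15, so the lowest range had the opposite sign to the other 3. Preadipocyte markers had the lower sum with P-G3, at 817 CPM with P-G3 and 1420 CPM in untreated cells on day 3, and 545 CPM with P-G3 and 1025 CPM in untreated cells on day 6. Of the 7 compared, 4 were at least 20% lower and 0 at least 25% higher on day 3 (38.5% and 5.04% of all genes). On day 6 these counts were 6 lower and 1 higher (51.3% and 6.68% of all genes). The higher one, Ly6a, stood at 46.1 CPM with P-G3 and 40.4 CPM in untreated cells on day 3, and at 58.2 CPM with P-G3 and 27.6 CPM in untreated cells on day 6. Of the 10 adipocyte markers, 7 were at least 25% higher and 0 at least 20% lower with P-G3 on day 3 (5.04% and 38.5% of all genes). On day 6 the counts were 3 higher and 3 lower (6.68% and 51.3% of all genes). The part of the preadipocyte and adipocyte markers in the differences was not tested.

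Other genes of the pathway are given from lists, on the scale of total UMIs, where the median of all genes with P-G3 on day 6 was -0.34 (-0.02 under TMM), so that each list median below was above that of all genes. The list counts stand beside 40.1% of all genes at least 25% higher and 26.9% at least 20% lower on day 6 over day 0. With P-G3 on day 6 these shares were 6.68% higher and 51.3% lower. The length trend with P-G3 was not taken off the list values, and its part in them was not tested. Of 14 subunits, carriers and ubiquinone genes outside the symbol pattern, 12 were at least 25% higher and 1 lower on day 6 over day 0 in untreated cells (median 1.12), and 7 higher and 1 lower with P-G3 on day 6 (median 0.23). Cycs, cytochrome c, stood at 942 and 1981 CPM with P-G3 on days 3 and 6, and at 388, 717 and 1526 CPM in untreated cells on days 0, 3 and 6. Cyc1, the cytochrome c1 of complex III, stood at 439 and 712 CPM with P-G3 and at 205, 282 and 390 CPM in untreated cells on the same days. At the low end, Atpif1, which inhibits ATP hydrolysis by complex V, had a log2 ratio of -0.63 on day 6 over day 0. At the high end, Coq8a, needed for ubiquinone synthesis, had 3.18 and stood at 0.844 CPM on day 0.

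Of 44 assembly factors compared, 31 were at least 25% higher and 3 lower on day 6 over day 0 (40.1% and 26.9% of all genes; list median 0.59), with Atpaf2, which helps build complex V, at 2.41 and Ndufaf2, a complex I factor, at -0.85. With P-G3 on day 6, 11 were higher and 5 lower (6.68% and 51.3% of all genes; list median 0.11), with Ndufaf3 at 0.71 and Sco1, which delivers copper to complex IV, at -0.60. Of 22 genes for copying and transcribing mitochondrial DNA, 14 were higher and 1 lower on day 6 over day 0 (median 0.56). With P-G3 on day 6, 3 of these 22 were higher and 6 lower (median -0.12), the lowest being Twnk, the mitochondrial helicase, at -0.91 and Polg, the mitochondrial DNA polymerase, at -0.75, and the highest Tefm, a transcription elongation factor, at 0.62.

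Of 9 transcription factors and coactivators known to act on respiration genes, 4 were higher and 2 lower on day 6 over day 0 (40.1% and 26.9% of all genes; list median -0.04). Ppargc1b, a coactivator, stood at 16.3 and 27.6 CPM with P-G3 on days 3 and 6, and at 2.43, 14.3 and 31.4 CPM in untreated cells on days 0, 3 and 6. With P-G3 on day 6, 0 of the 9 were higher and 4 lower (6.68% and 51.3% of all genes; list median -0.26), among them Pprc1 at -0.79 and Gabpa, a subunit of an ETS factor, at -0.71. Of 8 inner membrane carriers, 6 were higher and 1 lower on day 6 over day 0 (median 0.74), with the dicarboxylate carrier Slc25a10 at 2.66, the citrate carrier Slc25a1 at 2.58 and Slc25a4, an ADP/ATP carrier, at -0.59. With P-G3 on day 6, 3 of the 8 were higher and 0 lower, led by Slc25a5, another ADP/ATP carrier, at 0.57 (median 0.08). Of 20 pore and import genes, 14 were higher and 0 lower on day 6 over day 0 (median 0.56), and 2 higher and 1 lower with P-G3 on day 6 (median 0.18).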

How the data were processed

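The data are 5 single-cell 3' libraries of 3T3-L1 cells, 1 per group. The deposited matrices hold raw UMI counts per gene and barcode, per the file headers. The submitters' processing notes name GRCm38 and Cell Ranger 3.1.0, but the file headers name cellranger 5.0.1. The annotation release is not given in the sources used here. Gene models for positions and transcript lengths were those of GENCODE vM21. Barcodes with at least 500 genes and at most 20% mitochondrially encoded UMIs were kept, and doublets were not removed. Counts were summed over kept cells and scaled to CPM, and 3 counts, the limit for a gene at 0, correspond to 0.0167 to 0.0339 CPM. The 5 comparisons used genes averaging at least 5 CPM. Levels carry exact Poisson, ratios exact conditional binomial and shares Clopper-Pearson 95% intervals. The ratio intervals are of the count ratio without the added 1 CPM and had median widths of 0.03 to 0.04 on the log2 scale. The length trend was removed by subtracting the median ratio of a gene's bin among 20 bins of length. In each comparison the 4 highest and 4 lowest nuclear ratios were the ones to name, with the mitochondrial genes, complex II and the isoform families, and of other lists the 2 largest and 2 smallest. Levels of Cycs, Cyc1 and Ppargc1b in all libraries, and the values of marker genes, were chosen for their known roles after values were seen. The members and lists were chosen with earlier results of these data known. For each result up to 12 alternatives were computed. Python 3.11.15, numpy 2.4.6, scipy 1.17.1, pandas 2.3.3, R 4.3.3 and edgeR 4.0.16 (TMM factors only) were used. The counting was checked on simulated data.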

Additional observations from a re-analysis of the deposited data

Results flagged for a closer look

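For 8 genes the P-G3 ratio had one sign on day 3 and the other on day 6 with the counting interval on the same side of 0 as the ratio on both days, and the difference between days was not tested, as there is 1 library per group. These were mt-Nd2 (log2 ratio 0.12 on day 3 and -0.37 on day 6), mt-Nd3 (0.11 and -0.45), mt-Nd5 (0.09 and -0.40), mt-Atp6 (0.04 and -0.29), mt-Atp8 (0.29 and -0.33), Ndufa1 (0.06 and -0.22), Ndufa2 (0.13 and -0.019) and Ndufb1-ps (0.14 and -0.049). Another 2, Atp5k (0.30 and -0.016) and mt-Nd6 (0.03 and -1.08), also changed sign, but an interval on one of the days spanned 0. Under TMM scaling the day 6 ratios of mt-Atp6, mt-Atp8, Ndufa1, Ndufa2 and Ndufb1-ps were above 0, at 0.045, 0.0074, 0.115, 0.32 and 0.288, and under median-of-ratios scaling that of mt-Nd2 was too, at 0.013, so for these 6 the sign depends on the scaling. On day 6 mt-Nd3 was at -0.11 under TMM and -0.06 under median-of-ratios scaling. mt-Nd5 was at -0.058 and -0.008, so both stayed below 0 but mt-Nd5 was close to it.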

How the results depend on the processing

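Across the alternatives, 156 of 169 recomputed counts lay within 1.5 times the value reported and 13 did not, and of 2934 recomputed gene ratios 77 had another sign, 4 of them with a reported ratio past the sizes counted. The scaling of the P-G3 comparisons moved most. On day 3 the nuclear genes at least 25% higher with P-G3 numbered 67 under TMM, 73 under median-of-ratios scaling and 13 with the length trend removed, and the mitochondrial genes above 0 numbered 11 under TMM and 11 under median-of-ratios scaling. On day 6 the nuclear genes at least 25% higher numbered 73 under TMM and 77 under median-of-ratios scaling, and 2 were lower with the length trend removed (14.1% of all genes). The mitochondrial genes above 0 on day 6 numbered 5 under TMM, 7 under median-of-ratios scaling and 1 when cells were kept up to 10% mitochondrially encoded UMIs. The median of all genes was -0.02, 0.02 and -0.35 in these settings. On day 3 over day 0, 29 nuclear genes were at least 25% higher under median-of-ratios scaling (21.7% of all genes). At a mean of at least 20 CPM, a limit that leaves out Cox6a2, 0 were at least 20% lower (18.8% of all genes). These 4 were, on day 6 with P-G3, mt-Atp8, at 0.0074 under TMM and 0.057 under median-of-ratios scaling, and mt-Cytb at 0.024 and mt-Nd2 at 0.013 under median-of-ratios scaling. Under median-of-ratios scaling all genes split 22.1% at least 25% higher and 15.3% at least 20% lower on day 3, and 27.8% and 20.7% on day 6, with the median of all genes at 0.04 and 0.02 in place of -0.21 and -0.34. Apart from fewer genes at the higher limit, the cause of these differences was not tested. No paired analysis was possible because each group is 1 library.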
